A study of Homo sapiens with 6 samples.

Results

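Long intergenic noncoding RNAs (LINC genes) were examined in HMC3, an immortalised human microglial line, across 6 libraries, 3 labelled Control and 3 from cells exposed for 24 h to the cytokine IL-33. The members were chosen by their measured counts: they are the rows of the count table whose symbol is LINC followed by digits alone and whose raw counts sum to 30 or more over the 6 libraries: 128 genes of 1358 such rows, and of 27469 rows in all. Because the summed count was used in the choice, their overall level is given as a description, while the comparison of IL-33 with Control was not used in the choice. Both groups share the cell line and the same 3' tag chemistry, and the labels give no dose of IL-33 and name no vehicle for Control. HMC3 is a single line, and separate cultures are not mentioned for the libraries: the p-values then reflect only how far these libraries spread, which may be technical.

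A long noncoding RNA is a capped and usually polyadenylated transcript, often spliced, with no long open reading frame. The prefix LINC marks those that lie between protein-coding genes and have no name based on function. Some act in the nucleus on a neighbouring gene or on chromatin, others act in the cytoplasm, a few turned out to encode very small proteins, and for most no role is established. IL-33 signals through the receptor ST2 and the adaptor MyD88 to NF-kB and AP-1, both of which can switch on noncoding as well as coding genes in immune cells.

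Libraries held between 5739947 and 10217529 counts. Where 0 was seen, the upper limit on the expected count (95%, counting error only) is about 3 counts. These 3 counts corresponded to 0.293 to 0.543 CPM (counts per 1000000 counts). The shallowest library, Control 3, lay apart on the first principal component, at 54.96 against -18.0 to 0.86 for the others. The defining microglial markers ITGAM, P2RY12, TMEM119, CX3CR1, SPI1, TYROBP and C1QA were at 0 counts in all libraries, 7 of 14 microglia and macrophage markers listed. That list summed to 25.3 to 46.2 CPM in the Controls and 32.6 to 37.3 CPM after IL-33. The 9 mesenchymal markers, COL3A1 and ACTA2 at 0 among them, summed to 7005 to 8086 CPM in the Controls and 7434 to 7797 CPM after IL-33. Neuronal markers (4 genes) summed to 1.27 to 2.52 CPM in the Controls and 5.08 to 5.42 CPM after IL-33. Astrocyte markers (3 genes) summed to 1.56 to 2.35 CPM and 0.488 to 2.12 CPM, and the groups overlapped. Oligodendrocyte markers (3 genes) summed to 5.36 to 6.51 CPM and 4.95 to 7.35 CPM, and overlapped as well. Sums over so few genes at such low levels are a description only. The part of these lists in the values of the LINC genes was not tested.

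The label of noncoding RNA held for most but not all members. In GENCODE release 29 on GRCh38, 118 of the 128 symbols were found, and 87 of these were annotated as lincRNA, 11 as processed transcript, 7 as antisense and 5 as protein-coding. RefSeq now lists 7 of the symbols under protein-coding genes: LINC00998 as SMIM30, LINC00116 as MTLN, which encodes a mitochondrial microprotein, LINC00094 as BRD3OS, LINC01125 as C2orf92, LINC00672 as LASP1NB, LINC00634 as SMIM45 and LINC01279 as CCDC80, a secreted matrix protein. CCDC80 has a row of its own at 1077 CPM, against 13.3 CPM for LINC01279, so the counts of LINC01279 may include reads of that gene. Exons of 47 members overlapped exons of another gene, 25 on the same strand and 29 on the opposite one. The strand setting of the counting is not given in the sources used here, so such reads cannot be told apart.

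The 3' ends of 5 members are shown because the assay reads a tag just upstream of the poly(A) tail. Whether the annotated end is the part of the gene that was counted in HMC3 was not tested. Each line gives the last 50 bases of the transcript that ends farthest downstream in GENCODE release 29, 5' to 3', with the last poly(A) signal hexamer (AATAAA or ATTAAA) in capitals and no capitals where neither was present. LINC00674 and LINC01578 were the most abundant members, LINC00467 and LINC00472 had groups that did not overlap, and so did LINC01521.
LINC00674: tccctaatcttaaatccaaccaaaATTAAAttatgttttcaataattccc
LINC01578: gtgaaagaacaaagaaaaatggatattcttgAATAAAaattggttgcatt
LINC00467: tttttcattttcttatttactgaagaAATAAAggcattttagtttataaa
LINC00472: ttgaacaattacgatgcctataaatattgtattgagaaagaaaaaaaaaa
LINC01521: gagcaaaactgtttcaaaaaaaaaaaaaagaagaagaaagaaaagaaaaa
In the single-exon LINC01521, 70% of these 50 bases were A and no hexamer was present, and the end of LINC00472 ran out in A as well (52% A). Of the 118 members with a transcript, 77 (65.3%) held a hexamer in this window, against 556 of 957 LINC rows at 0 counts (58.1%), 48.9% of all GENCODE lincRNA genes and 71.3% of protein-coding genes. Among the 20 members with the most counts 11 held one. A match describes these letters and does not show where a tail was added in HMC3.

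The share of CpG-rich promoters was higher in the expressed LINC genes than in the rows at 0 counts. A promoter here is the 250 bases before and 50 after the start in RefSeq (GRCh38.p14), and CpG-rich means a GC content of 55% or more with a ratio of observed to expected CpG of 0.65 or more. Of 93 members with a promoter sequence 34 were CpG-rich (36.6%), against 43 of 179 LINC rows with 1 to 29 counts (24.0%), 69 of 696 at 0 counts (9.91%) and 41.9% of all 27305 promoters. Among the members the share was 8 of 13 (61.5%) at 10 CPM or more, 18 of 52 (34.6%) at 1 to 10 CPM and 8 of 28 (28.6%) below 1 CPM. Median GC content was 59.0% in members and 47.0% in rows at 0 counts. The summed count that chose the members also sets these groups, so the shares carry no test.

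**Figure D1:**
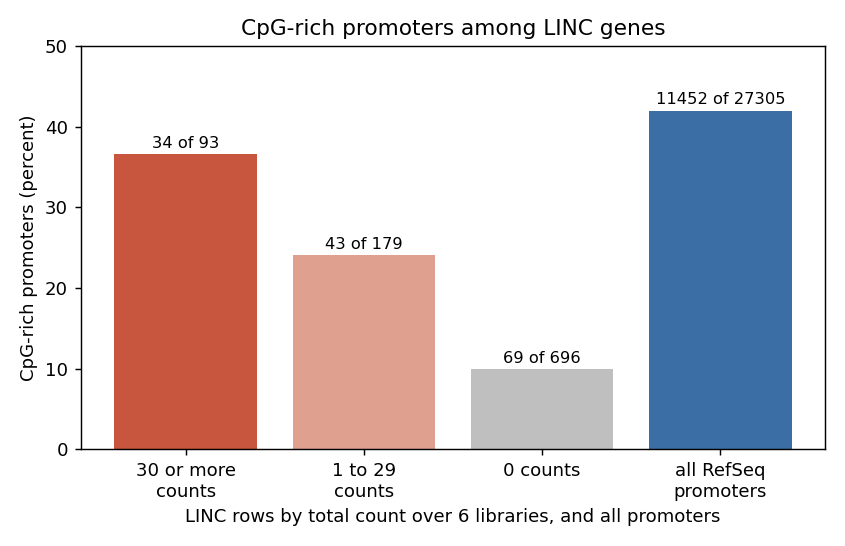
Percent of CpG-rich promoters (vertical axis) among LINC rows with 30 or more counts (the members), 1 to 29 counts and 0 counts over the 6 libraries, and among all RefSeq promoters, with the number of promoters over each bar. The share falls from 36.6% in members to 9.91% in rows at 0 counts.

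Promoters of LINC00472 and LINC00324 are printed to show both kinds in members whose groups did not overlap, 5' to 3' on the strand of the gene, with each CpG in capitals. LINC00472, on the minus strand at chr6:71420696-71420995, has 31 CpGs in 300 bases (68.7% GC, observed to expected 0.89). LINC00324, on the minus strand at chr17:8223994-8224293, has 3 CpGs (53.3% GC, observed to expected 0.14).
LINC00472: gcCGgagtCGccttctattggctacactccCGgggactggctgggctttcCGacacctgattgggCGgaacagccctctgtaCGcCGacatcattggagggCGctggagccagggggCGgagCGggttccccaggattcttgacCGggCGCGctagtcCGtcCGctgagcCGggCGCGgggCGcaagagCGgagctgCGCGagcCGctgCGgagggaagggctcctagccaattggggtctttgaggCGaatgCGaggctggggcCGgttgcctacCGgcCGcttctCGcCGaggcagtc
LINC00324: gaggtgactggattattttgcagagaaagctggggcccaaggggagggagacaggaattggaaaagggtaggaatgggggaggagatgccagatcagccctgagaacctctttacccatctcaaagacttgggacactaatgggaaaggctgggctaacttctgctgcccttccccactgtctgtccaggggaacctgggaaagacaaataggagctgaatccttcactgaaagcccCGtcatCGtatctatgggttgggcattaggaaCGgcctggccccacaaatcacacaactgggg
Letters that match the AP-1 site TGANTCA, on either strand, were in 7 of the 93 member promoters (7.53%), those of LINC00339, LINC00346, LINC00513, LINC00618, LINC00670, LINC00963 and LINC00987, against 15.1% of LINC rows with 1 to 29 counts, 13.2% of those at 0 counts and 7.76% of all promoters. The NF-kB consensus, searched on both strands, was in 3 (3.23%), those of LINC00265, LINC01273 and LINC01569, against 4.47%, 5.32% and 7.41%. A match is not a bound site, and the absence of one says only that these letters are not in the window.

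The members held 38820 counts, 0.0747% of all counts in the table. A 3' tag count does not grow with the length of the gene, so levels in CPM were not corrected for length. Exons and 3' ends shared with other genes still limit the comparison of levels between members. The mean level ran from 0.508 to 76.7 CPM. Only 20 members reached 10 CPM, 70 lay between 1 and 10 CPM and 38 below 1 CPM. The 3 most abundant took 27.4% of the members' counts and the first 10 took 49.3%. In all, 107 members were detected in every library and 0 were at 0 in a whole group. Summed over the members, the level was 756, 712 and 672 CPM in the Controls and 744, 753 and 810 CPM after IL-33, and the groups overlapped.

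LINC00674, annotated as a transcribed pseudogene on chromosome 17 from 68101908 to 68115518, measured 84.0, 62.3 and 76.5 CPM in the Controls and 85.7, 81.1 and 70.7 CPM after IL-33. LINC01578, now named CHASERR, lies on chromosome 15 from 92882707 to 92899701 beside CHD2, a chromatin remodeller gene that CHASERR is known to hold down in cis. It measured 82.7, 67.6 and 48.9 CPM in the Controls and 81.8, 68.9 and 78.2 CPM after IL-33. In these 2 most abundant members the Control means were 74.3 ± 11.04 and 66.4 ± 17.0 CPM (SD, n = 3). The IL-33 means differed from them by less than the Control SD. In LINC01578 the IL-33 values lay closer together than the Controls, so there this holds for the Control SD only. CHD2 itself measured 303 ± 35.8 CPM in the Controls and 312 ± 27.99 CPM after IL-33 (SD, n = 3 each), a log2 fold change of 0.04 ± 0.11 (SE). LINC01111, on chromosome 8 with ZFHX4 as its nearest coding gene at 156863 bases, measured 55.2, 46.5 and 51.9 CPM in the Controls and 57.3, 54.8 and 57.4 CPM after IL-33. In each of these 3 genes the groups overlapped, and the log2 fold changes were 0.09 ± 0.14, 0.19 ± 0.16 and 0.14 ± 0.14 (SE).

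**Figure D2:**
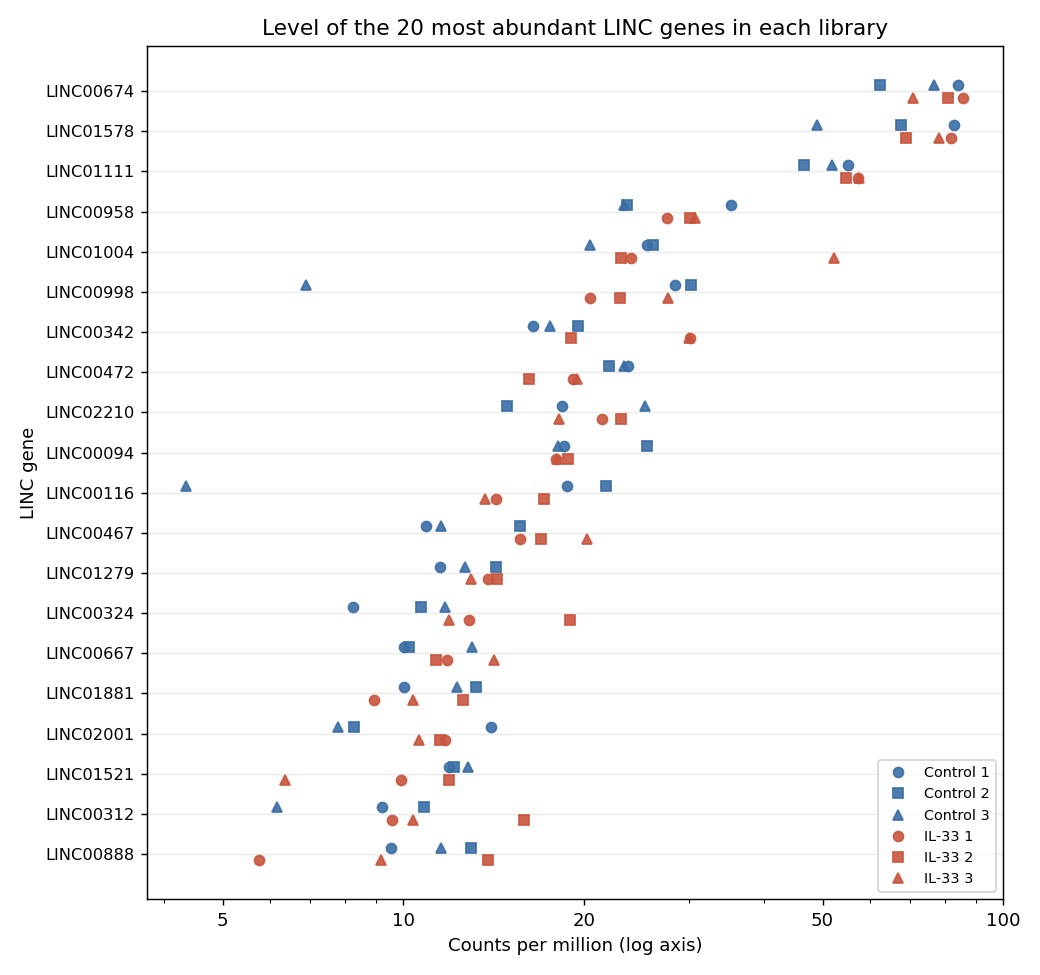
Level in CPM (horizontal log axis) of the 20 LINC genes with a mean of 10 CPM or more, one row per gene and one point per library, Control in blue and IL-33 in red, with the marker shape giving the replicate number. Control 3 lies far below the other libraries in LINC00998 and LINC00116, and IL-33 3 above them in LINC01004.

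Whether any of these RNAs differed after 24 h of the cytokine was tested next. A fold change here is the log2 ratio of IL-33 to Control in edgeR, tested by quasi-likelihood, and adjusted p-values (Benjamini-Hochberg) cover all genes tested. The filter on low counts passed 87 members (68.0%) and left 41 untested. Of the 87, 0 changed at an adjusted p of 0.05 by edgeR, where 0 of all 12125 genes tested did (0%), and all 87 had an adjusted p of 0.999. DESeq2 and limma-voom also called 0 members, against 0.00825% and 0% of all genes. At an unadjusted p under 0.05 there were 2 members by edgeR (2.30%), 1 higher and 1 lower, against 2.43% of all genes tested, of which 1.45% were higher and 0.981% lower. The lower one, LINC01204, passed the filter only through the Control libraries, where it is higher, so its direction follows from the filter. DESeq2 had 2 members at that level against 2.39% of all genes, and limma-voom had 3 against 2.8%. With a library left out the filter passed more members. Leaving out Control 1, 2 or 3 gave 4 of 99, 3 of 107 and 7 of 112 members, against 2.89%, 3.25% and 6.3% of all genes, and leaving out IL-33 1, 2 or 3 gave 3 of 101, 2 of 99 and 5 of 109, against 2.01%, 1.97% and 2.32%. Of the 7 without Control 3, LINC00265, LINC00618 and LINC00672 did not pass the filter with all libraries. Their direction may follow from how they passed it, so the 7 are no result about the members or IL-33. At an adjusted p of 0.05, 0 members were called in each of these 6 fits, against 0.0476% of all genes without Control 3 and 0% in the other 5. With all libraries and no filter on low counts, 0 of 128 members were called, against 0.0174% of all genes. Of the 87 members 48 had a fold change above 0 and 39 below, with a median of 0.04 against -0.01 over all genes tested, of which 48.9% were above 0. Groups did not overlap in 6 members, 3 higher and 3 lower with IL-33, or 6.90% against 8.06% of all genes tested (4.54% higher and 3.51% lower). LINC01204 is 1 of the 3 lower. Without Control 3 this held for 16 of the 87 members, against 22.1% of all genes tested, where a smaller group overlaps less often by design.

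Precision followed level. An interval (95%) between -1 and 1 on the log2 scale was reached by 23 of the 87 members (26.4%), against 73.4% of all genes tested. From 1 to 10 CPM it was reached by 9 of 62 members (14.5%) and by 22.2% of all genes at that level, at 10 CPM or more by 14 of 20 against 96.9%, and below 1 CPM by 0 of 5 members and 0% of all genes. Antisense genes, which had a median level of 3.63 CPM against 3.57 CPM in the members, reached it in 31.7%. The median biological coefficient of variation was 37.6% in members, 36.4% in antisense genes and 17.8% in all genes tested. At 10 CPM or more it was 19.96% in members and 14.5% in all genes, and from 1 to 10 CPM 40.9% and 36.3%. Of the 5702 genes in the level range of the 20 members at 10 CPM or more, 96.2% reached the interval. Their median coefficient was 16.3% and their median SE 0.192, against 0.249 in those members, at median levels of 28.9 and 17.3 CPM. Whether an interval lies between -1 and 1 depends on the fold change as well as on its SE. For the 64 tested members beyond the 23, the interval took in a change of 2-fold in at least 1 direction.

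**Figure D3:**
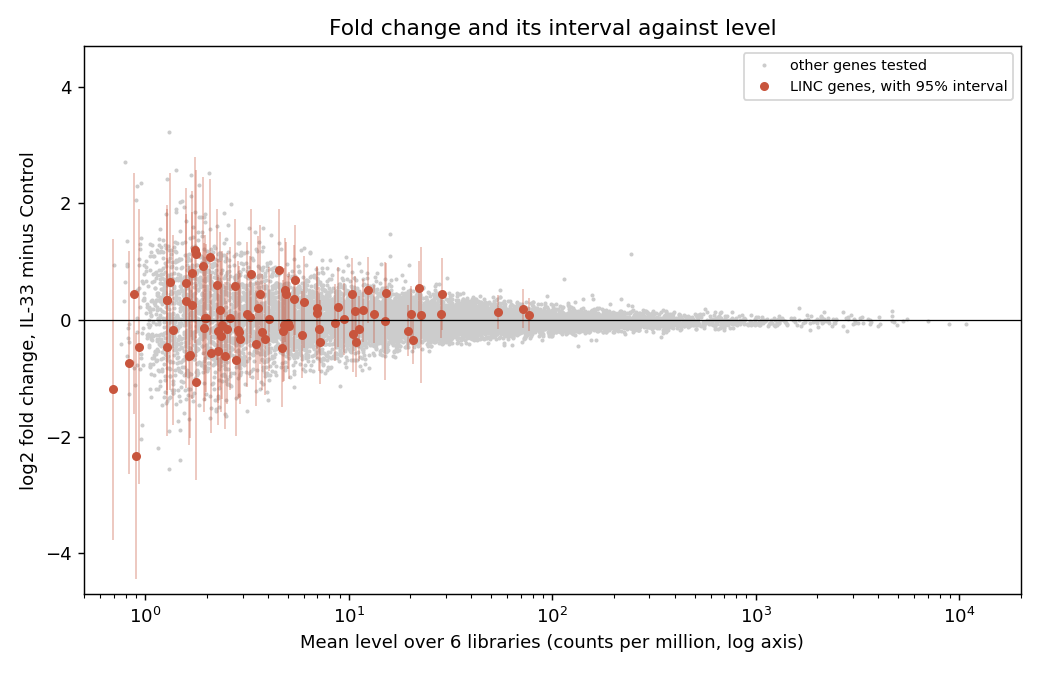
Log2 fold change of IL-33 minus Control (vertical axis) against mean level over the 6 libraries (horizontal log axis in CPM) for the 87 tested LINC genes in red, with 95% intervals as vertical lines, and the other genes tested in grey. The intervals narrow with level, and those of 23 LINC genes lie within -1 to 1.

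LINC00342 had the smallest p among members. It lies on the minus strand of chromosome 2 from 95807118 to 95816215, 20704 bases from ANKRD36C. It measured 16.5, 19.6 and 17.6 CPM in the Controls and 30.1, 19.04 and 29.9 CPM after IL-33. IL-33 1 and IL-33 3 lay above all Control libraries, and IL-33 2 lay below Control 2, so the groups overlapped. The log2 fold change was 0.56 ± 0.22 (SE), with an unadjusted p of 0.0179 and an adjusted p of 0.999 by edgeR. The last 300 bases of its annotated transcript match those of 2 other genes, AC092683.1 and AC159540.2, over 270 bases at 98.9% identity, so its reads may be shared with these copies.

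LINC00467, LINC00324 and LINC00173 were higher in every IL-33 library than in any Control library and did not pass the test. LINC00467, reported to encode a micropeptide of the ATP synthase complex, measured 10.9, 15.6 and 11.6 CPM in the Controls and 15.7, 17.0 and 20.3 CPM after IL-33 (chromosome 1, 211382803 to 211435333). The lowest IL-33 value, 15.7 CPM, lay next to the highest Control value, 15.6 CPM, and the log2 fold change was 0.47 ± 0.24. LINC00324, 778 bases from CTC1 on chromosome 17 (8220642 to 8224043), measured 8.24, 10.7 and 11.8 CPM in the Controls and 12.9, 18.9 and 11.9 CPM after IL-33. Here the fold change of 0.52 ± 0.27 drew most on IL-33 2, and it was 0.29 without that library. LINC00173 rested on few counts, 13, 9 and 9 in the Controls and 18, 20 and 39 after IL-33, with a log2 fold change of 1.08 ± 0.64 that was 0.54 without IL-33 3. The adjusted p was 0.999 by edgeR for each of the 3.

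LINC00472, LINC01521 and LINC01204 were lower in every IL-33 library than in any Control library and did not pass either. LINC00472, studied as a tumour suppressor in breast cancer, lies on chromosome 6 from 71344344 to 71420769. It measured 23.7, 22.0 and 23.3 CPM in the Controls and 19.2, 16.2 and 19.5 CPM after IL-33. Its Control values lay close together (23.0 ± 0.909 CPM, SD, n = 3) and the log2 fold change was -0.33 ± 0.20. LINC01521, on chromosome 22 from 31346777 to 31348719, measured 11.9, 12.1 and 12.8 CPM in the Controls and 9.91, 11.9 and 6.37 CPM after IL-33. IL-33 2 lay just under Control 1, and the fold change of -0.38 ± 0.28 was -0.17 without IL-33 3. LINC01204, on chromosome X from 45505388 to 45630202, had 15, 13 and 8 counts in the Controls and 7, 0 and 1 after IL-33. Its unadjusted p was 0.0320 by edgeR with an adjusted p of 0.999, and the log2 fold change of -2.33 ± 1.01 rests on counts at or near the detection limit in 2 IL-33 libraries. LINC01204 passed the filter on low counts only through the Control libraries, where it is higher. Its direction follows from that, and its p and lack of overlap are no support for a change.

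Among the other members with the smallest p in each direction, LINC00513, reported as a positive regulator of interferon signalling, had 25, 10 and 34 counts in the Controls and 50, 64 and 48 after IL-33. In CPM, Control 3 at 6.15 lay within the IL-33 range of 5.33 to 6.25, with Control 1 and Control 2 at 2.48 and 1.20. The log2 fold change was 0.86 ± 0.50 and became 1.62 without Control 3, with an adjusted p of 0.406 by edgeR, and 0.46 without Control 2. LINC00941 measured 4.07, 1.56 and 1.45 CPM in the Controls and 1.17, 0.0977 and 2.24 CPM after IL-33, a log2 fold change of -1.06 ± 0.80. It was -0.38 without Control 1, -0.50 without IL-33 2, -1.91 without IL-33 3 and -1.76 with limma-voom. LINC00346 had -0.68 ± 0.62 with groups that overlapped, from 1.69 to 5.43 CPM in the Controls and 1.18 to 3.71 CPM after IL-33, and ran from -0.22 without Control 3 to -1.39 without IL-33 2.

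LINC00998 and LINC00116, members that RefSeq lists as small-protein genes, were low in Control 3. LINC00998 (SMIM30, chromosome 7, 113116718 to 113118613) measured 28.4, 30.2 and 6.88 CPM in the Controls and 20.5, 22.9 and 27.6 CPM after IL-33. LINC00116 (MTLN, chromosome 2, 110211529 to 110245420) measured 18.8, 21.8 and 4.34 CPM in the Controls and 14.3, 17.2 and 13.7 CPM after IL-33. In Control 3 the first was 4.26-fold and the second 4.67-fold below the mean of Control 1 and Control 2. With all libraries the log2 fold changes were 0.09 ± 0.48 and -0.02 ± 0.45, and without Control 3 they were -0.31 and -0.43, with adjusted p of 0.853 and 0.814 by edgeR. Other members that RefSeq lists as protein-coding did not all do so. LINC00094 (BRD3OS) measured 18.6, 25.5 and 18.1 CPM in the Controls and 18.0, 18.8 and 18.0 CPM after IL-33. On the log2 scale Control 3 minus the other Controls was -0.02, -0.34 and -0.30 in LINC01279, LINC01125 and LINC00672, and -1.52 in LINC00634, which had 2 counts there. Of the 20 members at 10 CPM or more these 2 lay over 2-fold below the other Controls in Control 3, against 3.20% of all genes at that level. LINC00339, a processed transcript, was 2.92-fold below them at a lower level. The part of the depth of Control 3 in these values was not tested.

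In LINC01004 the IL-33 group likewise held 1 library apart. This antisense-annotated gene, on chromosome 7 from 104950315 to 105013044 and 1135 bases from KMT2E on the opposite strand, measured 25.5, 26.1 and 20.4 CPM in the Controls and 24.0, 23.0 and 52.2 CPM after IL-33. IL-33 3 was 2.22-fold above the mean of the other 2 IL-33 libraries. The log2 fold change of 0.45 ± 0.28 was -0.04 without IL-33 3. KMT2E, a chromatin regulator gene, measured 258 ± 22.5 CPM in the Controls and 264 ± 17.6 CPM after IL-33 (SD, n = 3 each).

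**Figure D4:**
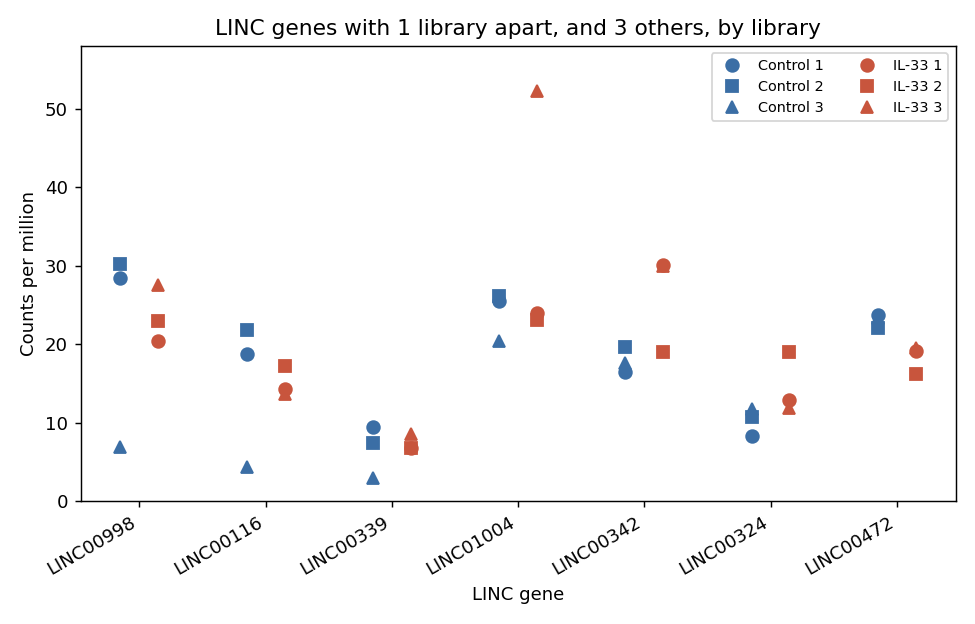
Level in CPM (vertical axis, from 0) of 7 LINC genes in each library, Control in blue and IL-33 in red, with the marker shape giving the replicate number. In LINC00998, LINC00116 and LINC00339 Control 3 lies below all other libraries, in LINC01004 IL-33 3 lies above them, and in LINC00324 IL-33 2 does, by less. LINC00342 and LINC00472 are shown beside them.

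The remaining members at 10 CPM or more had log2 fold changes between -0.24 and 0.44. LINC00888 and LINC02001 are now named SNHG33 and SNHG30, as host genes of small nucleolar RNAs, and had -0.24 ± 0.31 and 0.16 ± 0.29. LINC00312 had 0.44 ± 0.30, LINC00958, near TEAD1, had 0.10 ± 0.19, and LINC02210 had 0.11 ± 0.22. LINC00667, LINC01881 and LINC01279 had 0.17 ± 0.26, -0.15 ± 0.27 and 0.10 ± 0.24. The 3' end of LINC01881 matches those of AL627309.1 and LINC02193 at 98% identity or more, so its counts are uncertain. Of these 8 genes, 0 had groups that did not overlap.

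Of 25 LINC genes listed for a published function, 21 had a row, 3 of these were at 0 counts and 13 were members. Of the 9 tested, 7 had a fold change above 0 and 2 below, 0 changed, and the median was 0.13 against -0.01 over all genes tested. LINC00707 had 1.13 ± 0.69, from 2.09, 0.601 and 0.543 CPM in the Controls and 1.92, 2.83 and 2.71 CPM after IL-33, and had 2.08 without Control 1. LINC00174, LINC00294, LINC00339 and LINC00662 had 0.58 ± 0.55, 0.22 ± 0.33, 0.13 ± 0.38 and 0.10 ± 0.59, and LINC01234 had -0.53 ± 0.61. LINC01503, LINC00665, LINC00963 and LINC01116 did not pass the count filter, with 60, 57, 43 and 43 counts in all. Of the 15 symbols listed as later replaced by a name, 5 had a row and 4 were members (LINC01578, LINC00116, LINC00998 and LINC00094), 2 above 0 and 2 below, with a median of 0.04.

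At the lower end, 6 members had over 50% of their summed CPM in a single library. LINC00672, LINC01556 and LINC00921 had 34 of 61, 34 of 45 and 23 of 30 counts in IL-33 2. LINC00687 and LINC00211 had 19 of 50 and 16 of 36 counts in Control 3, and LINC01270 had 30 of 48 in Control 1. These are 9.84% of the 61 members with 30 to 99 counts, against 6.08% of the 1611 other genes in that range. With all 6 libraries none of the 6 passed the filter on low counts. Just inside the rule's sum of 30 lay LINC00921 and LINC01637 with 30 counts each and LINC00402 with 31, and just outside it lay LINC00893 and LINC01969 with 29 each and LINC01239 with 28.

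The members were set beside their coding neighbours. The nearest coding gene lay at a median distance of 15568 bases and overlapped 21 of the 118 placed members. In 58 tested members whose nearest coding gene was also tested, 26 pairs had the same sign of fold change, with Pearson's r of -0.01 and Spearman's rho of 0.00 across genes, which are not independent replicates and share the libraries. The coding neighbour was the more abundant in 48 of the 58, with medians of 37.2 and 3.41 CPM. Head-to-head pairs, with starts within 1000 bases on opposite strands, numbered 10, and both genes were tested in 9, of which 4 had the same sign of fold change and 5 the opposite. LINC01521 and PATZ1, whose starts are 545 bases apart, had -0.38 ± 0.28 and 0.09 ± 0.15, and LINC01184 and the ion transporter gene SLC12A2 had 0.69 ± 0.45 and 0.00 ± 0.18. LINC01137 and ZC3H12A, which encodes an RNase that degrades cytokine messengers, had 0.93 ± 0.73 and -0.25 ± 0.51, with starts 141 bases apart. Of the 10 coding partners UBE2G2, which encodes a ubiquitin-conjugating enzyme, had the smallest unadjusted p, 0.0480 by edgeR, in the fit across all genes: it had -0.24 ± 0.12, beside -0.46 ± 1.12 for LINC01424.

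Other noncoding classes in the same fit were set beside the members. Antisense genes, by symbol, had a median log2 fold change of 0.06 over 221 tested, with 128 above 0 and 7 at an unadjusted p under 0.05 (3.17%). Host genes of small nucleolar RNAs and microRNAs had 0.11 over 33, with 22 above 0 and 2 at that level (6.06%). Named long noncoding RNAs had 0.06 over 29, with 19 above 0 and 3 at that level (10.3%), all higher, and some host genes are in both lists. By edgeR, 0 genes of these classes passed at an adjusted p of 0.05.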

How the data were processed

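RNA was read by 3' tag sequencing (Lexogen QuantSeq FWD, per the labels' protocols) in 6 libraries of HMC3 cells. The authors deposited 1 table of raw read counts per gene symbol. Per the submitters' processing notes the build was hg38 and the tools included HTSeq 0.6.1, STAR 2.7.5a and edgeR, whose roles are not stated. For the annotation, strand setting and filters, the sources used here say nothing. Of the rows, 1 held no values and was left out.

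Groups came from the labels. The whole table was fitted with edgeR 4.0.16 in R 4.3.3: filterByExpr (count minimum 10, total minimum 15), TMM scaling, robust quasi-likelihood test, Benjamini-Hochberg adjustment at 0.05 over 12125 genes. CPM used TMM-scaled library sizes. DESeq2 1.42.0 and limma-voom (limma 3.58.1) were alternatives, with other scalings, filters, a replicate block and each library left out. SEs are the fold change over the root of the F statistic. Counting limits cover counting error only, since reads without molecular identifiers are not independent molecules. Replicate libraries differed by 5.60 to 16.5 chi-square units per degree of freedom, so none were merged. Positions and transcripts came from GENCODE release 29 and promoters from RefSeq (GRCh38.p14), matched by symbol, older symbol or synonym. Similar 3' ends were found with blastn 2.17.0 (98% identity over 75 bases or more). Figures were drawn with matplotlib 3.10.9. The fit was tested on simulated data.

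Members and lists were chosen with earlier results of these data known. The naming rule took members at 10 CPM or more, the 5 smallest p per direction, members with groups that did not overlap, those held by 1 library or next to the count limit, and 2 lists of known LINC genes. Chosen after the values were seen were CHD2, the head-to-head pairs, the printed sequences, the hexamer window, the CpG and motif definitions and the thresholds for similar ends.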

Additional observations from a re-analysis of the deposited data

How the results depend on the processing

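The count of 0 changed members was the same under the 8 other settings of scaling, filter, tool, threshold or replicate block, for members with 100 or more counts, and without any 1 library. Over all genes the count was 0 except for 3 without the low-count filter and 1 with DESeq2, and it ran from 0 to 6 with a library left out, none of them members. Members at an unadjusted p under 0.05 by edgeR ran from 2 to 7 with a library left out. The 7, of 112 tested, were without Control 3, where 6.3% of all genes were at that level. They were LINC00265, LINC00324, LINC00342, LINC00513, LINC00618, LINC00672 and LINC01184, all higher, with a smallest adjusted p of 0.406 by edgeR. Of these, LINC00265, LINC00618 and LINC00672 did not pass the filter on low counts with all libraries. Their direction may follow from how they passed it here. Members with groups that did not overlap went from 6 to 16 of 87 without Control 3, against 22.1% of all genes. Leaving out Control 3 was chosen after the data were seen, and no other library was left out for this count. A smaller group overlaps less often by design, so the rise is no result about Control 3 or IL-33. The median over tested members ran from -0.02 to 0.08 with a library left out. It was 0.10 with the replicate block, which changed no call, 0.10 with limma-voom and 0.11 over the 20 members that passed a filter at 10 CPM. Correlations of same-numbered deviations were -0.086, 0.027 and -0.136, and those of differently numbered ones ran from -0.076 to 0.126. With values of like size and so few libraries, whether equal numbers share a culture or batch cannot be told. Of 31 named tested members 22 kept their sign in every fit, and 28 moved by over 1.5 times or turned with a library left out (all but LINC00342, LINC00467 and LINC00472). LINC00116 turned from -0.02 to 0.10 with limma-voom and 0.19 with the replicate block. With a library left out the ranges were -0.43 to 0.33 for LINC00116, -0.020 to 0.19 for LINC00674, -0.0036 to 0.33 for LINC00958, -0.036 to 0.66 for LINC01004, -0.31 to 0.38 for LINC00998, -0.053 to 0.32 for LINC02210, -0.60 to 0.03 for LINC00888, -0.21 to 0.47 for LINC00339 and -0.32 to 0.66 for LINC00662. Beyond the fewer libraries, the cause was not tested. Depth limits the 38 members below 1 CPM, where 3 counts come to 0.293 to 0.543 CPM.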
